A study of Mus musculus with 6 samples.

Results

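The genes described here carry, make and break down the monoamine transmitters serotonin, noradrenaline and dopamine. Of 9 listed genes, 8 had at least 1 probe set that the platform annotation assigns to that gene alone, 13 probe sets in all, out of 18193 named genes in the series. They are the transporters Slc6a4, Slc6a2 and Slc18a2, the synthesis enzymes Tph2, Th and Ddc, and the breakdown enzymes Maoa and Maob. Slc22a3, a low-affinity organic cation transporter, had no such probe set and was not analysed here. Where a gene had several probe sets, the brightest on average stood for it and the others are given beside it.

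The samples were hippocampal RNA pools of singly housed male DBA/2 mice that drank venlafaxine in their water for 30 days. Controls received a dose of 0, the low dose group 30 and the high dose group 100 mg per kg per day, and 10 animals made up a dose group. Each dose group gave 1 left and 1 right pool, so there were 2 arrays per group and 6 in all. The first array of a group is replicate 1. In control and low dose that was the right pool and in the high dose the left pool. Hybridization took place on 2 dates, and the later one covered replicate 2 of control and of the high dose. The 2 later pools had an RNA integrity number (RIN) of 7.9 for control and 8.2 for the high dose, against 8.5 to 9.1 in the 4 earlier pools. Since the labels leave unsaid whether a group's left and right pools share animals, p-values cover the spread between pools, which may be technical.

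Monoamine signalling runs from synthesis through vesicle loading, release and reuptake to oxidation. Tph2 and Th catalyse the rate-limiting steps of serotonin and catecholamine synthesis, Ddc completes serotonin and dopamine, and Slc18a2 loads the vesicles. Slc6a4 and Slc6a2 return serotonin and noradrenaline to the nerve ending and are the transporters that venlafaxine blocks, while Maoa and Maob oxidize the amines on the outer mitochondrial membrane. The cell bodies of serotonin neurons lie in the raphe nuclei and those of noradrenaline neurons in the locus coeruleus, and both send axons into the hippocampus.

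The stretches before the start sites of 3 members are printed because they set the drug's target Slc6a4 and the catecholamine enzyme Th, which were both below the array median, beside Maoa, which was above it. Each is the 250 bases before the annotated start, 5′ to 3′ on the gene's strand, from RefSeq's mouse build GRCm38.p6, at chr11:76998347-76998596 (plus strand) for Slc6a4, chr7:142899996-142900245 (minus strand) for Th and chrX:16619448-16619697 (plus strand) for Maoa. Capitals mark matches on either strand to the GC box GGGCGG or the cAMP response element TGACGTCA.
Slc6a4: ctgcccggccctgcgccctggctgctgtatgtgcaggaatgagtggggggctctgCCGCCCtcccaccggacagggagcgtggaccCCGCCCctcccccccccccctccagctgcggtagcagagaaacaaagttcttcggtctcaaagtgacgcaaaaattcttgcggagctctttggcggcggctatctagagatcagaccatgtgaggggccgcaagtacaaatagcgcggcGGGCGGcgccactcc
Th: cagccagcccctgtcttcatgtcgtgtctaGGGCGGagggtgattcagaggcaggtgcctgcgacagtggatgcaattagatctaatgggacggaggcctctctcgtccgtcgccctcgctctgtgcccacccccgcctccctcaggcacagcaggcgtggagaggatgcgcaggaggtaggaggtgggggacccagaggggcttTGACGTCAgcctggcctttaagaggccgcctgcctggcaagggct
Maoa: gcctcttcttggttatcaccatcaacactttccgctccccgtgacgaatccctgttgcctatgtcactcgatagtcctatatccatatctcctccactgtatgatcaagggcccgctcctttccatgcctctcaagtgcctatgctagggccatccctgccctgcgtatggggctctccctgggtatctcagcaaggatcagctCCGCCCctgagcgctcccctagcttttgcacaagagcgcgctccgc
The GC box stood 3 times before Slc6a4, once before Th and once before Maoa, and 32.7% of 32851 such windows hold it. The cAMP response element stood once, before Th, beginning 45 bases upstream of the start, and 1.55% of windows hold it. Another motif, the TATA box TATAAA, was in none of the 3 windows and in 12.4% of all windows. Among members whose windows are not printed, it stood before Tph2, beginning 30 bases upstream, and before a Ddc start, beginning 68 bases upstream. The search covered both strands and no matches overlapped. Of the 9 listed genes 7 had a window in the RefSeq table. A match is a string of letters and does not show that a factor binds there.

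The first question was whether these transcripts stood out from the lower part of the array signal in hippocampus. The breakdown enzymes Maoa and Maob and the decarboxylase Ddc were above the array median on all 6 arrays, whereas the serotonin transporter Slc6a4, the vesicle transporter Slc18a2 and the rate-limiting enzymes Tph2 and Th were below it on all 6. Array medians lay between 7.79 and 7.80 on the log2 scale, and values over all probe sets ran from 6.10 to 15.31. The deposited values come without a detection call, so a value below the median does not show that a transcript was absent. Fewer cells of a type and less RNA per cell cannot be told apart in such pools.

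Slc6a4 had 1 probe set, with log2 levels of 7.14 and 7.41 in control pools, 7.31 and 7.31 in low dose pools and 7.36 and 7.36 in high dose pools. These values stood at percentiles 27.3 to 36.7 of their arrays. The control pools held both the lowest and the highest value, so both treated groups fell inside the control range.

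Slc6a2 had 4 probe sets. The highest of them straddled the median, with log2 levels of 7.77 and 7.81 in control pools, 7.88 and 7.77 in low dose pools and 7.85 and 7.68 in high dose pools. It was above the array median on 3 of 6 arrays, 1 in each dose group. The other 3 probe sets were below the median on every array, between 6.69 and 7.21. The noradrenaline transporter thus came no further than the middle of the array, at percentiles 46.3 to 52.1 on its brightest probe set.

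Slc18a2, the vesicular monoamine transporter of neurons, measured 7.47 and 7.59 in control pools, 7.50 and 7.57 in low dose pools and 7.62 and 7.60 in high dose pools. The high dose pools lay above the 4 other arrays by a margin well under the distance between the control pools. Tph2 was the dimmest main probe set by rank, at percentiles 11.2 to 17.1, with 6.78 and 6.95 in control pools, 6.96 and 6.83 in low dose pools and 6.90 and 6.85 in high dose pools. Th varied least of the 8 genes, with a range of 0.11 log2 over the 6 arrays, at 7.26 and 7.22 in control pools, 7.29 and 7.18 in low dose pools and 7.25 and 7.23 in high dose pools. For Tph2 and Th the 3 dose groups overlapped.

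**Figure D1:**
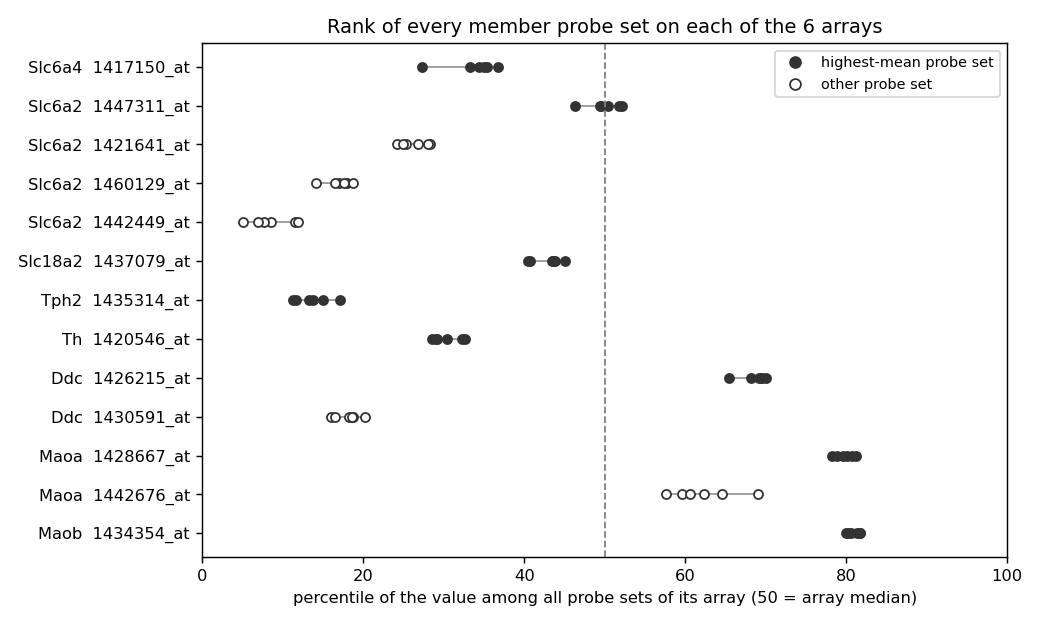
Percentile of each of the 13 probe sets among all probe sets of its array (horizontal axis, 0 to 100), with 1 point per array and a line over their range. Filled points are the highest-mean probe set of a gene and open points the others. Maoa, Maob and Ddc sit right of the dashed array median on all 6 arrays, Slc6a2 straddles it, and Slc6a4, Slc18a2, Tph2 and Th sit left of it.

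Ddc, Maoa and Maob were bright enough to be followed across doses. Ddc, the aromatic amino acid decarboxylase, measured 8.60 and 8.69 in control pools, 8.84 and 8.86 in low dose pools and 8.78 and 8.76 in high dose pools. Both controls were the lowest arrays, and the groups were ordered control, high dose and low dose with no overlap between neighbours. Its other probe set lay between 6.93 and 7.03 and placed the low dose pools lowest, so it did not show that order.

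Maoa, which prefers serotonin and noradrenaline as substrates, measured 9.55 and 9.61 in control pools, 9.52 and 9.66 in low dose pools and 9.68 and 9.58 in high dose pools on its main probe set. The groups overlapped. Maob, the form found in astrocytes and serotonin neurons, measured 9.81 and 9.55 in control pools, 9.75 and 9.86 in low dose pools and 9.62 and 9.60 in high dose pools. The 2 control pools enclosed both high dose arrays. The Maoa and Maob proteins are isoenzymes.

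**Figure D2:**
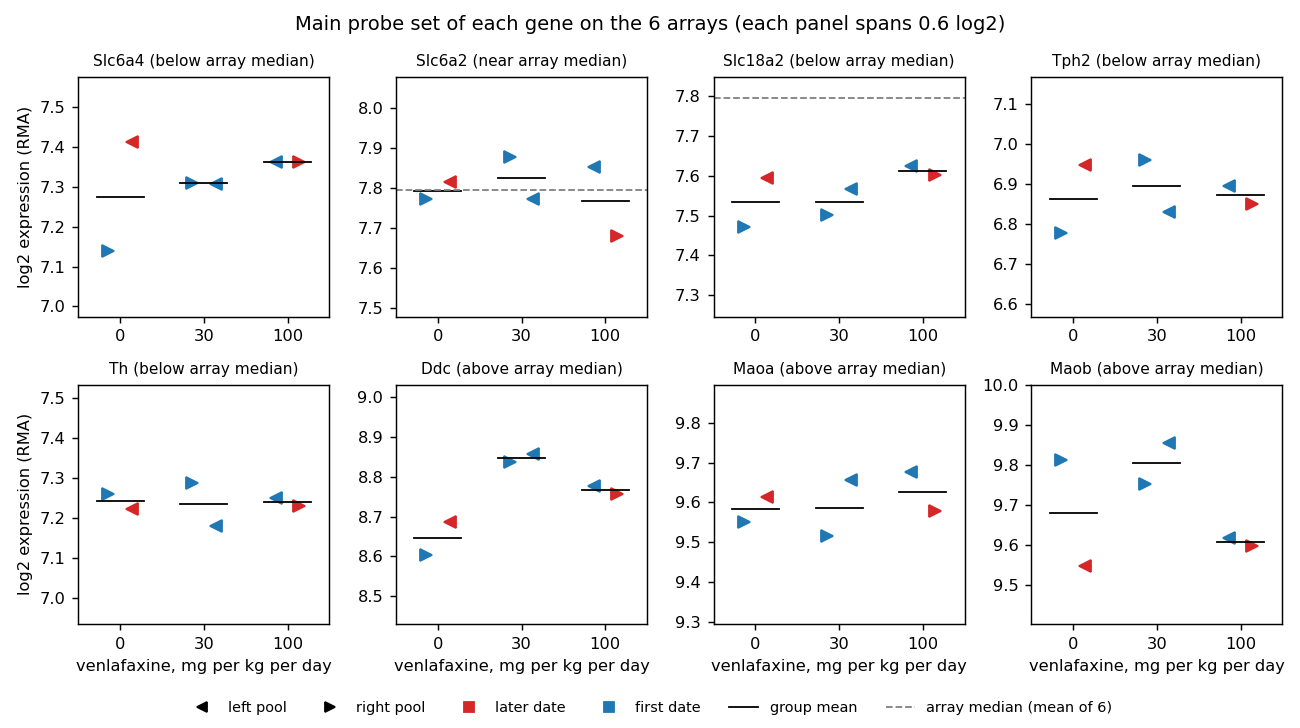
Log2 expression of the main probe set of each of the 8 genes (vertical axis, each panel spanning 0.6 log2) against venlafaxine dose in mg per kg per day. Each triangle is 1 array, pointing to the brain side of its pool, with the later date in red and the first date in blue, short lines are group means of 2 arrays, and dashed lines, where in range, the array median. Of these 8 genes Ddc is the gene whose 2 control arrays lie below all 4 treated arrays, and the share of all named genes with this pattern was not counted.

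The dose comparisons asked whether venlafaxine changed these transcripts. No member passed the threshold of an adjusted p of 0.05 in any of the 3 comparisons (limma with Benjamini-Hochberg adjustment over 11743 genes). Of the 8 measured genes 4 were tested, because they were above the array median on at least 2 arrays. They are Slc6a2, Ddc, Maoa and Maob. None of them had an unadjusted p under 0.05 either. For comparison, 0.00852% of all tested genes were called for high dose against control (1 gene), 0.0426% for low dose against control and 0% for high against low dose, while 324, 390 and 729 genes in that order had an unadjusted p under 0.05. Over the 12 estimates the 95% intervals ran from -0.42 to 0.41 log2, so a change of more than 1.34-fold downward or 1.33-fold upward lay outside each of them.

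At the high dose against control, Ddc averaged 8.77 ± 0.013 at the high dose and 8.65 ± 0.057 in controls (SD, n = 2 each), a log2 fold change of 0.12 (95% interval -0.09 to 0.33, limma adjusted p = 1.00). Maoa had a log2 fold change of 0.04 (-0.17 to 0.26), Maob one of -0.07 (-0.29 to 0.15) and Slc6a2 one of -0.03 (-0.24 to 0.19), with an adjusted p of 1.00 each. The median over the 4 genes was 0.01, beside -0.03 over all tested genes. High dose and control arrays did not overlap for 2 of the 8 measured genes, Slc18a2 and Ddc, both higher, while 27.4% of all named genes were so separated. With the replicate number as a block, the number of genes called was 10 in place of 1 and no member was among them. The replicate number equals the date in these 2 groups but not in the low dose group, whose arrays share the first date. That fit is therefore not a date block over all arrays. Within the first date the high dose array exceeded the control array by 0.17 log2 for Ddc, and within the later date by 0.07.

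At the low dose, Ddc averaged 8.85 ± 0.014 at the low dose and 8.65 ± 0.057 in controls (SD, n = 2 each), a log2 fold change of 0.20 (95% interval -0.01 to 0.41). This was the highest estimate of the 12 and the nearest to a call before adjustment (unadjusted p = 0.0562, limma adjusted p = 1.00). Without the filter on dim probe sets its unadjusted p was 0.0271 with an adjusted p of 1.00. With the mean of its probe sets in place of the brighter one, the Ddc estimate was 0.07 at the low dose and 0.05 at the high dose, both against control. Both dose comparisons share the control arrays, so the Ddc values at the 2 doses are not separate observations. Low dose and control arrays did not overlap for 1 of the 8 genes, which was Ddc, against 22.9% of all named genes. The first date's control array, a right pool, was 0.23 log2 below the right low dose array and 0.25 below the left one.

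Lists of markers of neighbouring tissue are given beside the Ddc levels. The mean level of 8 hypothalamus markers was 8.00 to 8.12 in low dose pools and 7.81 to 7.94 in control pools, it was 7.88 in both high dose pools, and 4 of these 8 markers were below the median on all arrays. Avp, the vasopressin gene, singled out after its values were seen, measured 9.32 and 8.40 in low dose pools, against 7.80 and 8.00 in control pools. Pmch, seen in the same way, was also clear of the controls at the low dose, whereas Oxt, Pomc, Sim1, Otp and Trh overlapped. Hcrt was not clear of them either, at 7.62 and 7.58 in low dose pools and 7.55 and 7.58 in control pools. The mean of 7 choroid plexus markers, all above the median on every array, was 10.08 and 10.31 in low dose pools, against 10.06 and 9.79 in control pools. High dose pools, at 9.89 and 10.40, enclosed the low dose pools but not the lower control pool. The mean of 6 meningeal and fibroblast markers overlapped, with 8.76 and 9.04 in low dose pools and 8.91 and 8.77 in control pools. The part of these tissues in the Ddc values was not tested.

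The other estimates at the low dose were smaller or less steady. Maob had a log2 fold change of 0.12 (95% interval -0.10 to 0.35), Slc6a2 one of 0.03 (-0.18 to 0.25) and Maoa one of 0.003 (-0.21 to 0.21), each with an adjusted p of 1.00. The median over the 4 genes was 0.08, beside 0.04 over all tested genes. For Maob the left low dose array was 0.31 log2 above the left control array, whereas the right one was 0.06 below the right control array. The left pair also differs in date, and side and date cannot be told apart here.

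At the high against the low dose, Maob averaged 9.61 ± 0.014 at the high dose and 9.80 ± 0.072 at the low dose (SD, n = 2 each), a log2 fold change of -0.20 (95% interval -0.42 to 0.03, limma adjusted p = 0.827). Ddc had -0.08 (-0.29 to 0.13), Slc6a2 -0.06 (-0.27 to 0.16) and Maoa 0.04 (-0.17 to 0.25), with adjusted p between 0.919 and 0.970. The Maob estimate was -0.03 with RIN as a covariate and -0.12 with a date block, and that of Ddc was -0.02 with the mean of its probe sets or after quantile normalization. The median over the 4 genes was -0.07, the same as that over all tested genes when rounded. The arrays of the 2 doses did not overlap for 4 of the 8 measured genes, with Slc6a4 and Slc18a2 higher and Ddc and Maob lower at the high dose, beside 39.1% of all named genes. The mean of 6 astrocyte markers, a cell type in which Maob is found, was 11.67 to 11.69 in high dose pools and 11.67 to 11.81 in low dose pools, and its part in the Maob values was not tested.

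**Figure D3:**
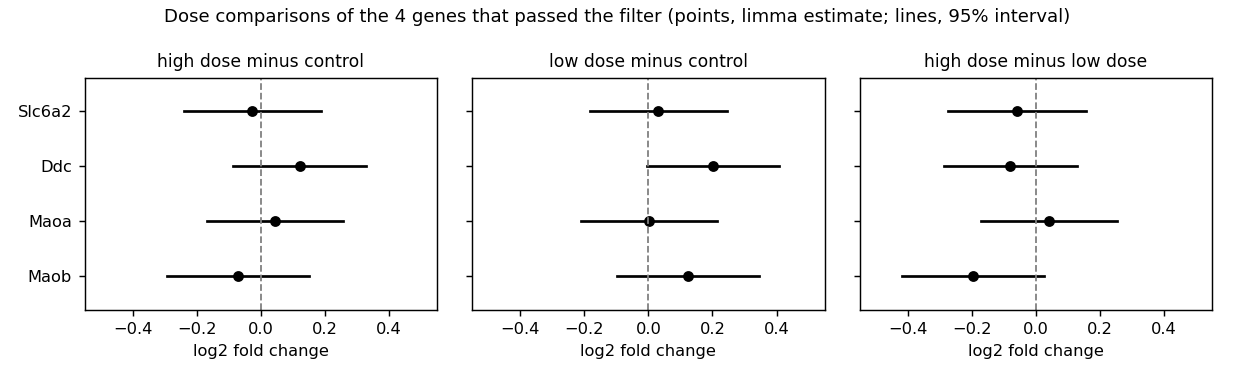
Log2 fold changes (points) with 95% intervals (lines) of Slc6a2, Ddc, Maoa and Maob in the 3 dose comparisons, from limma fits to all 6 arrays with 2 arrays per group. All 12 intervals cross 0, and that of Ddc at the low dose against control ends nearest to it.

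The 4 dim genes were compared in a fit without the filter, over 18193 genes. Slc6a4 had a log2 fold change of 0.09 at the high dose against control (95% interval -0.12 to 0.30) and 0.03 at the low dose against control (-0.18 to 0.24). Slc18a2 had 0.08 (-0.10 to 0.26) at the high dose against control, Tph2 0.01 (-0.18 to 0.21) and Th -0.001 (-0.18 to 0.18). None of these 4 genes passed in any dose comparison of that fit (limma adjusted p of 0.954 to 1.00). Values near the bottom of an array can understate differences between transcript levels, so these intervals bound the array signal.

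The hybridization date was compared with dose group as a term. None of the 4 tested members passed, while 6.97% of all tested genes did, 145 higher and 673 lower on the later date. Maob had a log2 fold change of -0.14 (95% interval -0.32 to 0.04, limma adjusted p = 0.414), with later arrays at 9.55 and 9.60 and first-date arrays between 9.62 and 9.86. The estimate was -0.02 without either control array and -0.27 without either high dose array, and it was -0.08 after quantile normalization. Maob was 1 of 2 measured genes whose dates did not overlap, beside 31.2% of all named genes. The other was Slc6a4, for which the lowest later array and the highest first-date array were both 7.36 when rounded. Slc6a2 had -0.07 (-0.25 to 0.12), Ddc 0.03 (-0.15 to 0.21) and Maoa -0.02 (-0.20 to 0.16), so the median over the 4 was -0.04, beside -0.06 over all tested genes. In this fit and in that of the sides all genes shared 1 estimate of the spread.

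The 2 probe sets of Maoa disagreed on the date. The second one measured 8.48 and 8.76 on the later arrays, against 8.14, 8.22, 8.40 and 8.25 on the first-date arrays, so both later arrays were the highest. When every probe set was fitted on its own, its log2 fold change for later against first date was 0.42 (95% interval 0.24 to 0.60, limma adjusted p = 0.000263). In that fit 10.8% of 19939 tested probe sets were called. All probe sets shared 1 estimate of the spread there, so the interval and adjusted p do not reflect this probe set's own spread. The main probe set had -0.02 in the same fit (-0.20 to 0.17, adjusted p = 0.953). The rise was 0.51 log2 between the high dose arrays and 0.33 between the control arrays. Without either high dose array the estimate was 0.33 and the call was lost (adjusted p = 0.0822).

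The second Maoa probe set was singled out after its values were seen. The level of the second minus that of the main probe set was 0.37 log2 higher on the 2 later arrays than on the 4 others. An exact permutation of that difference over the 15 choices of 2 arrays could reach no p below 0.0667. The probe set was also chosen for this difference, so no conclusion is drawn from that test. By dose the second probe set had a log2 fold change of 0.19 at the high dose against control (95% interval -0.16 to 0.55, limma adjusted p = 1.00), with 8.25 and 8.76 at the high dose, against 8.14 and 8.48 in controls. The later arrays also had the lowest RIN, 7.9 for control and 8.2 for the high dose, and date and RIN cannot be told apart for this probe set.

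**Figure D4:**
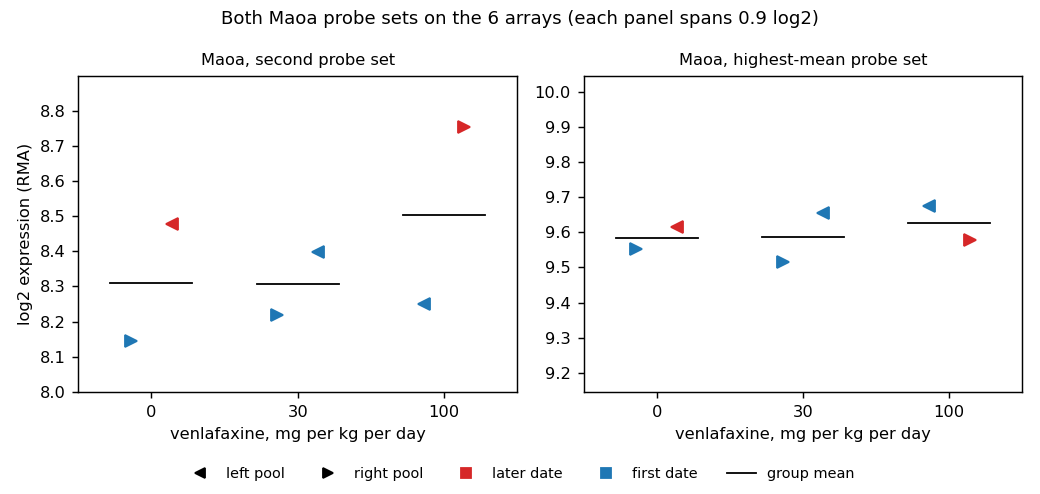
Log2 expression of the second Maoa probe set (left) and the highest-mean Maoa probe set (right) on the 6 arrays against venlafaxine dose in mg per kg per day, each panel spanning 0.9 log2. Triangles point to the brain side of the pool, red marks the later and blue the first date, and short lines are group means of 2 arrays. On the left both red points are the highest of the 6 arrays, whereas on the right they lie within the blue points.

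Between brain sides no member passed, and 0% of all tested genes did, with 40 genes and no member at an unadjusted p under 0.05. Maoa had the widest difference, with 9.61, 9.66 and 9.68 in left pools and 9.58, 9.52 and 9.55 in right pools, a log2 fold change of 0.10 (95% interval -0.11 to 0.31, limma adjusted p = 1.00). All 3 left arrays were above all 3 right arrays. Maoa was the 1 measured gene of 8 whose sides did not overlap, beside 3.73% of all named genes, and its second probe set overlapped. Slc6a2 and Ddc had 0.04 each and Maob -0.05, and the median over the 4 genes was 0.04, beside -0.01 over all tested genes.

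The rest of the monoamine pathway gave a similar account. Of 21 further transporters, enzymes and cofactor genes, 17 had a probe set of their own and 12 were tested. None of the 12 passed in a dose comparison. At the high dose against control 10 of the 12 had higher means, with a median log2 fold change of 0.06 beside -0.03 over all tested genes, and at the low dose 10 of 12, with a median of 0.06 beside 0.04. At the high against the low dose 4 had higher and 8 lower means, with a median of -0.02 beside -0.07 over all tested genes. The comparisons share arrays, and the share of all tested genes with higher means was not counted. The estimates in the 3 comparisons ran from -0.13 to 0.13.

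The pathway genes with the largest moderated statistics in each dose comparison are given next, though none of them was called. Pcbd1, which helps regenerate the tetrahydrobiopterin cofactor of Tph2 and Th, had a log2 fold change of 0.12 at the high dose against control, and Pnmt, which makes adrenaline, 0.08. Akr1a1, an aldehyde reductase, had 0.13 at the low dose against control and Pnmt 0.12. Pnmt had 3 probe sets, and its estimates came from the brightest, at 8.60 to 8.77. The others lay at 7.67 to 7.80, above the median on 1 array, and at 7.22 to 7.44, never above it. At the high against the low dose Qdpr, which reduces the spent cofactor, had -0.13, and Aanat, which acetylates serotonin, 0.11. The limma adjusted p was 0.894 or higher for each. The dopamine transporter gene Slc6a3, the vesicle transporter gene Slc18a1, the cation transporter gene Slc22a2, the peripheral tryptophan hydroxylase gene Tph1 and the cofactor gene Gch1 were below the median on all 6 arrays.

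Qdpr was the 1 pathway gene of 12 tested that was called for the date, beside 6.97% of all tested genes. It rose on the later date by a log2 fold change of 0.29 (95% interval 0.11 to 0.47, limma adjusted p = 0.0312), with 13.62 and 13.56 on the later arrays and 13.25 to 13.66 on the first-date arrays, so the dates overlapped. The call came from a probe set whose suffix marks probes that may match other transcripts. Its other probe set had -0.12 (adjusted p = 0.496) when fitted on its own. As for Maoa, the date difference depended on the probe set.

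All 7 markers of hippocampal neurons were above the median on every array. So were all 7 of choroid plexus, 5 of 6 of meninges and fibroblasts and 3 of 8 of hypothalamus, so these lists do not single out hippocampus. None of 4 measured markers of serotonin neurons and none of 4 of dopamine neurons was above the median on any array, and Slc6a4, Tph2 and Slc6a3 belong to these lists themselves. Among 3 measured markers of noradrenaline neurons, Phox2a was below the median throughout, Slc6a2 straddled it and Dbh was above it at 8.92 to 9.04. That Dbh value also came from a probe set with this suffix, and the other 2 Dbh probe sets were below the median on all arrays, at 7.24 to 7.70.

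The genes whose profiles over the 6 arrays were most like those of the 2 widest-ranging tested members were found by the root mean square difference between centred log2 values. Nearest to Maob, which ranged over 0.31 log2, were Sec22b (0.014 log2), Pcnx3 (0.014) and Pld3 (0.016), where the median over all tested genes was 0.096. Sec22b measured 10.43 and 10.17 in control pools, 10.33 and 10.46 in low dose pools and 10.23 and 10.21 in high dose pools, so it too had a high first and a low second control. Nearest to Ddc, which ranged over 0.25 log2, were Iyd (0.023), Mplkip (0.027) and Pdlim2 (0.028), where the median was 0.118. With 6 arrays and 11743 genes some close profiles are found for any gene.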

How the data were processed

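Hippocampal RNA pools were measured on 6 arrays. The authors deposited log2 expression values per probe set, made with RMA in R 3.0.1 per the submitters' processing notes, and its settings are not stated there. The values' range shows the log2 scale. No 2 arrays were identical. After 64 control probe sets were set aside, 34945 of 45101 probe sets had 1 gene symbol in the platform annotation. Another 932 had several and 9160 had none. For 34741 probe sets the symbol was taken from RefSeq by Entrez identifier, and how many symbols this changed was not counted. Genes above the array median on at least 2 arrays were tested, 11743 in all. Two-sided moderated tests of limma 3.58.1 (R 4.3.3) were adjusted by Benjamini-Hochberg over all tested genes, with a threshold of 0.05 and dose group as the term, and with date or side added for those comparisons. Fits were tested on simulated arrays. The members, lists and rules were chosen with earlier results of these data known. Named genes are the 9 members, the 2 pathway genes with the largest statistic per dose comparison, those that passed, those below the median on all arrays, and the 3 nearest profiles of 2 members. Alternatives covered the filter, probe set choice, scaling, shrinkage, added terms and leaving out each array. Over the tested genes, replicate 2 minus replicate 1 had a correlation of 0.540 between high dose and control, 0.0765 between low dose and control and 0.133 between high and low dose; in the labels the number equals the date for high dose and control only.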

Additional observations from a re-analysis of the deposited data

Results flagged for a closer look

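For 3 of the 4 tested genes the difference between dose groups took opposite signs in the 2 dates or sides. Each rests on 1 array per group, date and sides change together, and none of these contrasts was tested. How many of all tested genes turn sign in this way was not counted, so 3 of 4 is not a result about the members. The flagged value is the difference on the later date minus that on the first, or the left minus the right. For Slc6a2, high dose minus control was -0.14 log2 on the later date and 0.08 on the first, which differ by -0.22. In left pools it was 0.04 and in right pools -0.09 (difference 0.13). Low dose minus control was -0.04 in left and 0.11 in right pools (difference -0.15), and high minus low dose was 0.08 in left and -0.20 in right pools (difference 0.28). For Maoa, high dose minus control was -0.04 on the later date and 0.12 on the first (difference -0.16), and low dose minus control was 0.04 in left and -0.04 in right pools (difference 0.079). For Maob, high dose minus control was 0.05 on the later date and -0.20 on the first (difference 0.25), and 0.07 in left and -0.22 in right pools (difference 0.29). Low dose minus control was 0.31 in left and -0.06 in right pools for Maob, a difference of 0.37. Ddc had the same sign in both sides in each dose comparison. It also had the same sign in both dates for high dose minus control, the only dose comparison that both dates cover.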

How the results depend on the processing

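The number of members past the threshold stayed at 0 in the 5 comparisons under 84 of 85 alternatives, the replicate block (0 in each dose comparison) included; the exception was the date comparison with each probe set fitted on its own, chosen after seeing the data, where 1 passed (Maoa). Of 322 single-gene values under alternatives 287 kept their sign and side of the threshold, 33 turned sign, 2 lost the call of the second Maoa probe set by date and none gained a call. Many of these alternatives cannot change an estimate. Examples are another filter or shrinkage, a block balanced over the 2 compared groups, and leaving out an array of the third group. A sign kept there is no support, for Ddc as for the others. Ddc kept its sign in the dose alternatives run, at 0.05 to 0.17 for high dose against control, 0.07 to 0.26 for low dose against control and -0.13 to -0.02 for high against low dose, with the lowest sizes from the mean of its probe sets. These signs turned. On the first date alone, Slc6a2 was 0.082 at the high dose against control and 0.029 at high against low dose, and Maob was -0.0093 at the low dose against control. At the low dose against control, Maoa was -0.024 after quantile normalization, Slc6a2 and Maoa were -0.0016 and -0.0059 with a date block, with or without side, and Slc6a2 and Maob were -0.0041 and -0.057 with RIN as a covariate. With RIN, Maoa was -2e-04 at high against low dose. For the date, Maoa was 0.20 with the mean of its probe sets and 0.053 after quantile normalization. Leaving out 1 array at a time gave, at the high dose against control, -0.11 to 0.060 for Slc6a2, -0.0042 to 0.092 for Maoa and -0.21 to 0.061 for Maob; at the low dose against control, -0.021 to 0.084 for Slc6a2, -0.068 to 0.073 for Maoa and -0.0093 to 0.26 for Maob; at high against low dose, -0.15 to 0.029 for Slc6a2 and -0.029 to 0.11 for Maoa; for the date, -0.17 to 0.043 for Slc6a2, -0.018 to 0.081 for Ddc, -0.096 to 0.063 for Maoa and -0.27 to -0.02 for Maob; and for left against right, -0.031 to 0.11 for Slc6a2 and -0.12 to 0.061 for Maob. The cause was not tested. The counts over all genes moved more: 0 to 178 for high dose against control (1 as reported; 178 without control replicate 2), 0 to 546 for low dose against control (5; 546 without control replicate 1), 0 to 152 for high against low dose (0; 152 without control replicate 1), 154 to 1499 for the date (818; 154 without control replicate 1, 1499 after quantile normalization) and 0 to 2 for side (0). The replicate block gave 10, 32 and 45 calls over all genes in the dose comparisons, in that order. With 2 arrays per group and no scanner files used here, signal over background could not be assessed.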

Other observations

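Slc29a4, which encodes the plasma membrane monoamine transporter, was above the median on all 6 arrays on both of its probe sets. Its main probe set, with a suffix that marks probes that may match other transcripts, ranged from 10.03 to 10.24 log2. The other measured 8.04 and 8.22 on the later arrays, against 8.32 to 8.48 on the first-date arrays, with a log2 fold change of -0.25 for later against first date (limma adjusted p = 0.0680). The main probe set had -0.01 (adjusted p = 0.967). Of the 4 probe sets of Akr1a1 the date estimates ran from -0.23 to -0.01, and none passed.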
